A study of Debaryomyces hansenii with 6 samples.

Results

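A group of 121 genes of the salt-tolerant yeast Debaryomyces hansenii stood above the unstressed level at every sampled time after salt was added, at 0.5, 3 and 6 h. They were chosen from 6320 genes on the array by their measured values: a mean log2 ratio of stressed over time-0 cells of at least 0.5 at 0.5 h, at least 0.6 at 3 h and at least 0.6 at 6 h, and a ratio above 0 on all 6 arrays. All of their ratios were therefore used to choose them, and those ratios are given below as a description, without a test. Of the 121 genes, 118 carry a locus name that the RefSeq annotation ASM644v2 also lists, and 3 do not. Neither the array files nor that annotation gives a function for any of them, so the genes appear here by locus name with no role attached.

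Cells in shaken batch culture were taken to early log phase in YPD, a rich medium, at 30 °C, and the stressed samples then stood in 2 M NaCl for 0.5, 3 or 6 h. The control was an aliquot of cells taken at time 0, before the salt. Each of the 6 2-colour Agilent arrays carried 1 stressed sample against 1 time-0 control, with 2 arrays at each time. Replicate 1 had the stressed sample in Cy5, and replicate 2, from a different biological replicate, had it in Cy3, so the replicate number and the dye orientation cannot be told apart. The labels name no strain and leave unstated whether arrays had a culture or a control aliquot in common. No unstressed cells were sampled at the later times, so salt and time in culture cannot be told apart in any ratio.

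Debaryomyces hansenii is found in sea water, brines and salted foods, and it grows in the presence of sodium at concentrations that stop many other yeasts. In yeasts, a sudden rise in external salt draws water out of the cell and brings in sodium ions, and the cell answers by making and holding glycerol as a compatible solute and by pumping sodium out. In Saccharomyces cerevisiae the first response runs through the Hog1 kinase, and many of the transcripts it raises fall back once the cells have adapted.

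Most of the raised genes gave signal above background on these arrays. Each gene had 2 probes, and for 101 of the 121 (83.5%) both probes were well above background in all 12 channel values, against 45.0% of all genes. The choice itself favours such genes, because the background correction draws the ratios of dim spots towards 0. Nothing is therefore read from this contrast. None of the 121 had a saturated spot. The stressed channel was above background on all 6 arrays for all 121 genes, and the control channel was for 112. The control was not above background on either 0.5 h array for DEHA2E18788g and DEHA2G15444g, whose 0.5 h ratios are therefore bounds of at least 1.43-fold and at least 1.46-fold. For DEHA2E18788g the same held at 6 h, with a bound of at least 2.31-fold. These bounds set the normalized stressed signal against the higher of the control's own signal and the lowest signal that counted as above background. For DEHA2G15444g at 0.5 h and DEHA2E18788g at 6 h the control's own signal was the one used. Those bounds therefore equal the measured ratios.

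At 0.5 h the log2 ratios of the 121 genes had a median of 0.80 (1.75-fold) and ran from 0.50 to 1.60. The median was 1.56 (2.94-fold) at 3 h, with a range of 0.61 to 3.09, and 1.79 (3.46-fold) at 6 h, with a range of 0.60 to 2.68. A log2 ratio of at least 1, a doubling, was reached by 28 of them at 0.5 h, 98 at 3 h and 109 at 6 h, and a log2 ratio of at least 2 by 0, 27 and 32. Most of these genes thus stood less than doubled at the earliest time and more than doubled at both later ones. For 125 other genes that passed the 3 h and 6 h thresholds but not that at 0.5 h, the medians were 0.27, 0.88 and 0.93. The ratios of both sets were used to choose them, so nothing is read from the difference.

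The 2 arrays of a time differed in size. In replicates 1 and 2 the median log2 ratio of the 121 genes was 0.61 and 0.96 at 0.5 h, 0.99 and 2.07 at 3 h, and 1.49 and 2.07 at 6 h. Replicate 2 gave the higher ratio for 98 of the 121 at 0.5 h (81.0%), 113 at 3 h (93.4%) and 110 at 6 h (90.9%), where over all genes it did so for 51.8, 51.0 and 49.8%. The spread over all genes was also wider in replicate 2 at 3 h, with an SD of 0.61 against 0.38 in replicate 1, and at 6 h, with 0.55 against 0.41. On the 3 h array of replicate 1 the scanner software's slope of observed on expected spike-in log ratios was 0.295, where the other arrays had 0.788 to 0.926. Its part in the low ratios of that array was not tested; the 3 h median of the 121 genes was 2.07 without that array and 1.56 with both. In the map of all 121 genes by array, the replicate 2 column is the stronger of each pair.

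**Figure D1:**
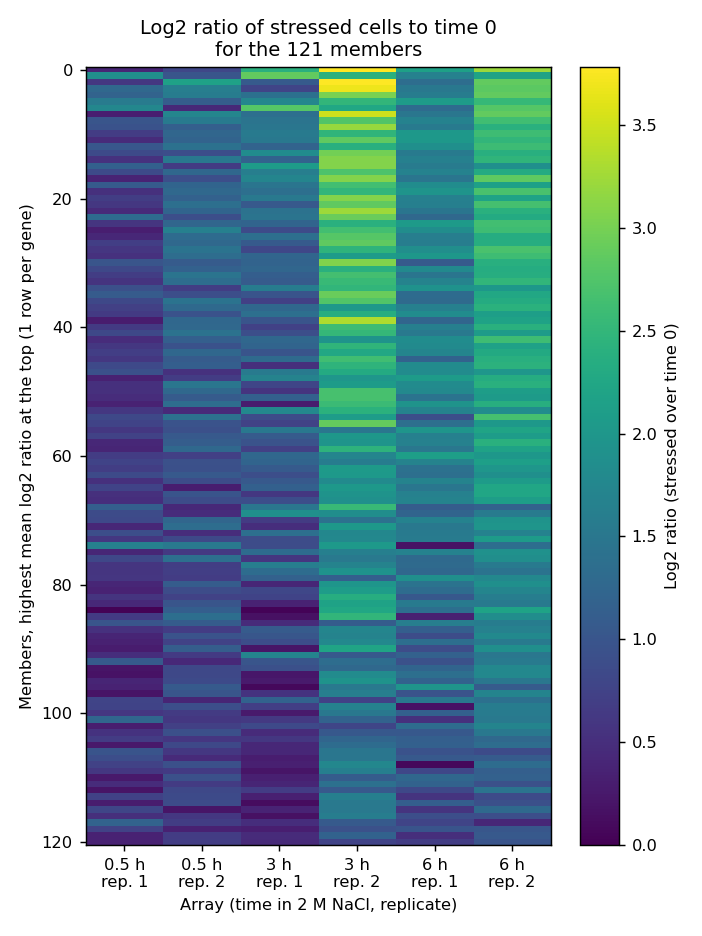
Log2 ratio of stressed over time-0 cells for each of the 121 genes (rows, ordered by their mean) on each of the 6 arrays (columns, by time and replicate); colour gives the ratio. All ratios are above 0, the 0.5 h columns are the weakest with medians of 0.61 and 0.96, and replicate 2 is the stronger of each pair at the median.

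Because all 6 arrays entered the choice, whether such genes can be found again was examined on arrays left out of it. The same thresholds applied to the 3 arrays of replicate 1 alone gave 79 genes. Of these, 76 (96.2%) were above 0 on all 3 arrays of replicate 2, against 26.2% of all genes, and 56 (70.9%) passed every threshold there, against 2.90% of all genes. Their median log2 ratios on the unused arrays were 0.92, 2.25 and 2.12 at 0.5, 3 and 6 h. In the other direction the thresholds on replicate 2 gave 183 genes, of which 146 (79.8%) were above 0 on all 3 arrays of replicate 1, against 22.1% of all genes. Only 56 of the 183 (30.6%) passed every threshold there, against 1.25% of all genes, and their medians on the unused arrays were lower, at 0.42, 0.61 and 1.19. Choosing on 5 arrays and reading the remaining array gave 90 to 137 genes, of which 91.2 to 100% were above 0 on that array, against 48.8 to 51.1% of all genes. The 5 arrays include others of the same replicate, which may share a culture or a control aliquot with the array left out. That array is therefore not known to be independent of the choice. The direction of the ratios was thus shared by the other biological replicate for most of the genes chosen, while their size was smaller when read on replicate 1.

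**Figure D2:**
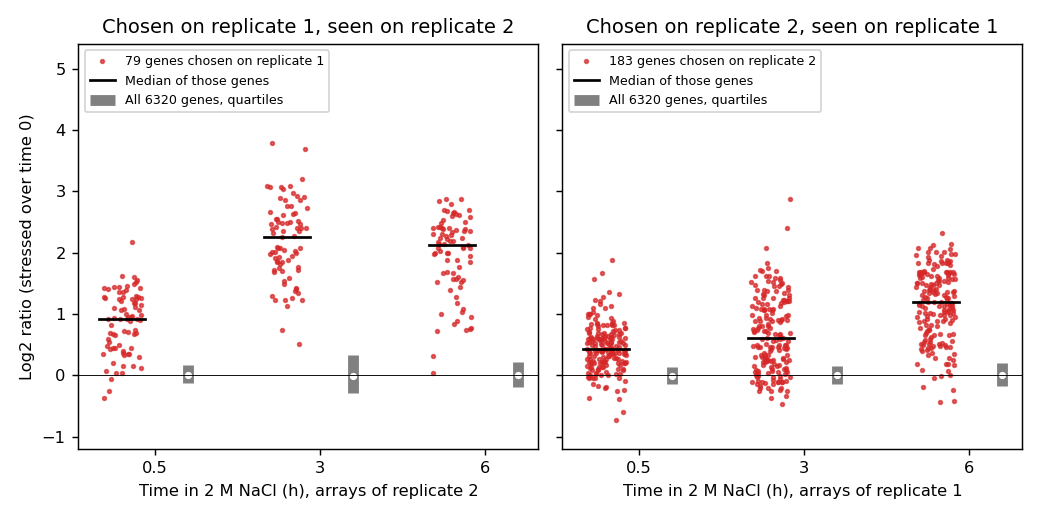
Log2 ratio of stressed over time-0 cells on the arrays that were not used to choose the genes, for the 79 genes chosen on replicate 1 (read on replicate 2) and the 183 chosen on replicate 2 (read on replicate 1), at each time; black bars are medians, and grey bars with a white point are the quartiles and median of all 6320 genes. Median ratios were 0.92, 2.25 and 2.12 in the 79 genes and 0.42, 0.61 and 1.19 in the 183.

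Most of the 121 genes had higher ratios at 6 h than at 0.5 h. At the mean of both arrays, 74 stood higher at each successive time, 41 were highest at 3 h and 2 were highest at 0.5 h, while 4 had their lowest ratio at 3 h. The 3 h ratio was above the 0.5 h ratio in both replicates for 89 of 121 genes (73.6%, all genes 30.0%), and the 6 h ratio was above the 0.5 h ratio in both for 107 (88.4%, all genes 32.2%). In the 125 genes past the late thresholds only, these shares were 87.2 and 97.6%. Both sets were chosen by these same ratios, so nothing is read from the contrast with all genes. Between 3 and 6 h the replicates went different ways: the ratio was higher at 6 h for 100 genes in replicate 1 but for 45 in replicate 2, and for 40 in both (33.1%, all genes 30.9%). With each array centred on its median in place of loess, 103 of the 121 were higher at 6 h than at 3 h in both replicates, and 63 were with the processed signals that the scanner software gives. The order of 3 and 6 h within the group therefore depended on the replicate and the normalization. The 6 h ratio stood above the 0.5 h ratio in both replicates for 104 to 113 genes under the normalizations and probe rules tried. These ratios chose the genes, with a lower threshold at 0.5 h than at 6 h. Shares of all genes under the alternatives were not computed, and median centring also moved the whole array at 6 h. Nothing particular to the group is read from these counts.

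**Figure D3:**
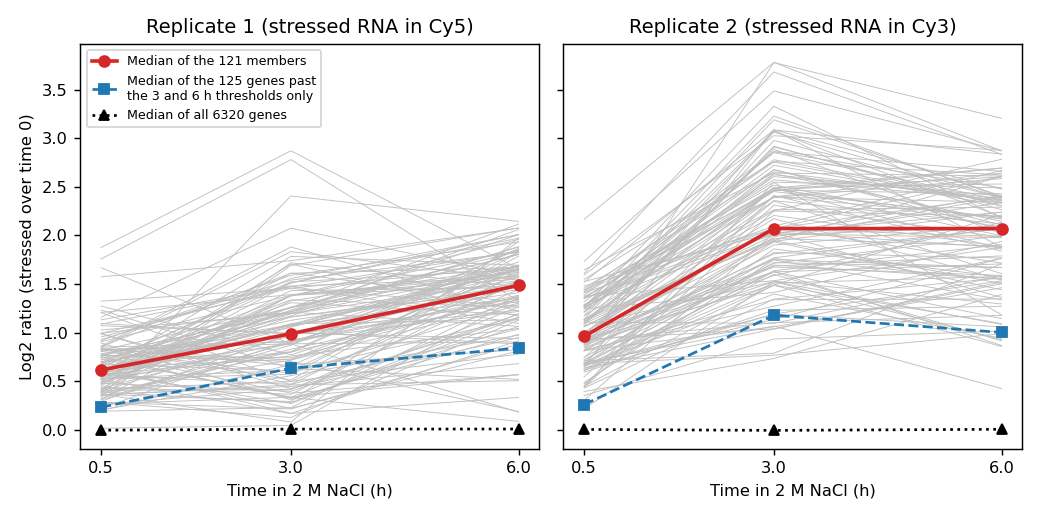
Log2 ratio of stressed over time-0 cells against hours in salt, 1 panel per replicate: each of the 121 genes (thin lines), their median, the median of the 125 genes past the late thresholds only, and the median of all 6320 genes, which stays at 0. The median of the 121 is 0.61, 0.99 and 1.49 in replicate 1 and 0.96, 2.07 and 2.07 in replicate 2.

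Across all genes, limma's moderated test with Benjamini-Hochberg adjustment at 0.05 called 0.0316% of 6320 genes higher at 0.5 h, 3.43% at 3 h and 4.34% at 6 h. Of the 121 genes, 0 passed at 0.5 h, 70 at 3 h and 87 at 6 h, with 68 passing at both later times, 2 at 3 h only, 19 at 6 h only and 32 at neither. These calls come from the ratios that chose the genes and are given only as a description. At 0.5 h 79 of the 121 had an unadjusted p under 0.05 in limma, as did 555 of all 6320 genes. The number called higher moved with single arrays, for the 121 genes and for the whole array together. At 3 h it was 115 of the 121 and 631 of all 6320 genes when the 3 h array of replicate 1 was left out, and 10 and 16 when that of replicate 2 was. It was 24 and 50 on leaving out any one array at 0.5 h, and 36 and 78 on leaving out any one at 6 h. At 6 h the number was 17 of the 121 and 39 of all genes when the 6 h array of replicate 1 was left out, and 0 and 0 when that of replicate 2 was, where 91 of the 121 and 688 of all genes still had an unadjusted p under 0.05 in limma. It was 57 and 141 on leaving out any one array at 0.5 h, and 114 and 491 on leaving out any one at 3 h. A time left with 1 array has no spread of its own in these fits and is assumed to vary like the other times. Without background correction 16 of the 121 and 30 of all genes were called higher at 3 h, and 48 and 149 at 6 h. With the authors' deposited values it was 15 and 26 at 3 h, and 46 and 144 at 6 h. The differences between times gave 0% of genes called in limma for 3 h minus 0.5 h, 6 h minus 3 h and 6 h minus 0.5 h, with 555, 570 and 529 genes at an unadjusted p under 0.05; among the 121 genes these were 34, 7 and 45.

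DEHA2G18964g had the highest mean ratio of the group. Its log2 ratio was 0.39 and 0.81 at 0.5 h, 2.41 and 3.78 at 3 h, and 2.15 and 3.21 at 6 h in replicates 1 and 2, so its 3 h and 6 h arrays did not overlap with those at 0.5 h. The means were 0.60 ± 0.30, 3.09 ± 0.97 and 2.68 ± 0.75 (SD, n = 2), or 1.52-fold, 8.54-fold and 6.39-fold. It thus combined one of the weaker early ratios of the group with its largest late ones. DEHA2G17820g, the next by mean ratio, was already at 1.88 and 1.00 by 0.5 h, then had 2.87 and 2.40 after 3 h and 1.66 and 2.19 after 6 h. Here replicate 1 was the higher at 0.5 and 3 h, the reverse of most of the group. Its 2 probes differed by 0.69 on average, the widest gap in the group, where the median gap was 0.12.

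DEHA2E14498g was at 0.61 and 2.17 at 0.5 h, 1.08 and 3.78 at 3 h, and 1.35 and 2.87 at 6 h, with SDs of 1.10, 1.91 and 1.07 that make it the least repeatable of the named genes. DEHA2G13508g was at 1.27 and 1.61, then 0.77 and 3.68, then 1.52 and 2.84, and its 3 h arrays differed by more than those of either other time. DEHA2B14344g was at 1.21 and 1.59, then 1.39 and 3.03, then 1.58 and 2.88. In all 3 genes every array of replicate 2 stood above its partner in replicate 1, with the widest gap at 3 h. All 3 were also above 0.6 on the 3 h array of replicate 1. DEHA2E22946g was steadier, at 1.57 and 1.11, then 1.74 and 2.49, then 2.08 and 2.53, with an SD of at most 0.53.

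DEHA2C11528g was at 1.76 and 0.44 at 0.5 h, 2.78 and 2.25 at 3 h, and 1.32 and 2.78 at 6 h, and it was the gene with the second widest gap between its probes, 0.62. DEHA2F02662g, with a gene length of 435 bases, was at 0.31 and 1.73, then 1.38 and 3.49, then 1.49 and 2.87. The remaining genes among the 10 highest by mean were DEHA2F12826g, with means of 1.27 ± 0.39, 2.11 ± 0.92 and 2.15 ± 0.67 at 0.5, 3 and 6 h, and DEHA2C15532g, with means of 1.05 ± 0.13, 2.34 ± 1.21 and 1.99 ± 0.60 (SD, n = 2). Of the 10 genes with the highest mean, 7 had their highest mean at 3 h and 3 at 6 h, where in the whole group 78 were highest at 6 h.

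The largest differences of 6 h minus 0.5 h, after that of DEHA2G18964g, were found in 3 further genes. DEHA2A09306g was at 0.34 and 0.67 at 0.5 h, 1.69 and 1.99 at 3 h, and 2.08 and 2.34 at 6 h, higher at each step in both replicates with no overlap between times. DEHA2F25344g was at 0.38 and 0.92, then 1.72 and 3.09, then 1.47 and 2.84. Its control channel was not above background on 2 arrays, that of replicate 2 at 0.5 h and that of replicate 1 at 3 h. DEHA2F09614g was at 0.59 and 1.25, then 1.21 and 2.40, then 2.06 and 2.64, so the lowest 6 h array stood above both 0.5 h arrays.

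A few genes of the group were highest early. DEHA2G12650g had the largest 0.5 h ratio, at 1.67 and 1.53 in the replicates, with 0.88 and 2.03 at 3 h and 0.18 and 1.36 at 6 h. Its mean was 0.77 ± 0.84 at 6 h, against 1.60 ± 0.10 at 0.5 h (SD, n = 2), a difference of −0.83 for 6 h minus 0.5 h, with both 6 h arrays below both 0.5 h arrays. DEHA2B13706g was at 1.21 and 0.69, then 0.50 and 1.07, then 0.78 and 0.42, and its 6 h mean of 0.60 ± 0.25 lay at the threshold of the group. DEHA2G12650g and DEHA2B13706g were the 2 genes with their highest mean at 0.5 h. DEHA2A05280g and DEHA2B10296g also stood lower at 6 h than at 0.5 h, with means of 0.71 ± 0.89 against 0.84 ± 0.13 and of 0.72 ± 0.21 against 0.79 ± 0.08, differences within the spread of their arrays.

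Departures at 3 h went both ways. DEHA2B15268g was at 1.16 and 0.66 at 0.5 h, 2.08 and 3.08 at 3 h, and 1.58 and 1.88 at 6 h, and its 3 h arrays stood above all others. DEHA2A13134g was likewise at 1.13 and 0.44, then 1.48 and 2.55, then 1.09 and 1.18, so both replicates had their highest ratio at 3 h. By contrast DEHA2B12188g was at 0.99 and 1.11, then 0.47 and 1.10, then 1.61 and 1.58. DEHA2C12848g, with a gene length of 333 bases, was at 0.84 and 1.25, then 0.66 and 1.41, then 1.68 and 1.94. DEHA2D17622g was at 0.36 and 1.07, then 0.08 and 1.53, then 1.98 and 1.08. In these 3 genes the 3 h array of replicate 1 stood below its 0.5 h value, while the 3 h mean of DEHA2D17622g, 0.80, was not below its 0.5 h mean of 0.72.

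The spread between replicates varied by gene. DEHA2F18832g, at 318 bases, gave 0.60 and 0.67 at 0.5 h, 1.17 and 1.14 at 3 h, and 1.89 and 1.76 at 6 h, the most repeatable profile of the group and one with no overlap between times. DEHA2E12276g gave 0.58 and 0.69, then 1.61 and 1.70, then 1.31 and 1.55. DEHA2C04884g gave 0.61 and 0.92, then 1.51 and 1.49, then 1.97 and 2.21. At the other end, DEHA2D12694g gave 0.64 and 1.37, then 0.17 and 2.49, then 0.33 and 1.86, so its place in the group rested mostly on replicate 2. The median SD over the 121 genes came to 0.33 for the 0.5 h arrays, to 0.81 for those at 3 h and to 0.39 for those at 6 h.

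Both probes of a gene met the thresholds for most of the 121 genes. Each probe alone met all thresholds for 106 of the 121 genes, and for the other 15 only 1 probe did. Both probes were above 0 on all 6 arrays for 120 genes. The genes were chosen on the mean of these same probes, which favours such counts, so nothing is read from them. On single arrays the correlation between the first and the second probe over the 121 genes was 0.77 to 0.91, a description over genes that share each array. Over all genes it was 0.80 to 0.93. The median gap between probes was 0.123 in the group and 0.120 over all genes, so the group's probes agreed no better than those of the whole array. After DEHA2G17820g and DEHA2C11528g the widest gap was that of DEHA2C04048g, at 0.41, whose ratios were 0.29 and 1.26, then 0.99 and 3.33, then 1.23 and 2.18.

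Several of the raised genes have probes much like those of another gene. A probe matching another gene's probe at 45 or more of its 60 bases was found for 13 of the 121 genes (10.7%), against 2.14% of all genes. The 4 pairs within the group were DEHA2B04928g with DEHA2C07920g at 51 matching bases, DEHA2D08514g with DEHA2F22242g at 47, DEHA2D09460g with DEHA2F09614g at 54, and DEHA2F03300g with DEHA2G07392g at 58. Partners gave close values in 3 of the 4 pairs. DEHA2F03300g had means of 0.80, 2.04 and 1.97 at 0.5, 3 and 6 h, and DEHA2G07392g had 0.74, 1.93 and 1.91. DEHA2B04928g had 0.90, 1.93 and 2.33, and DEHA2C07920g had 0.96, 2.01 and 2.31. DEHA2D09460g had 0.96, 1.82 and 2.09, and DEHA2F09614g had 0.92, 1.81 and 2.35. The exception was the pair with the fewest matching bases, in which DEHA2D08514g stood at 1.04 ± 0.07 and DEHA2F22242g at 0.53 ± 0.12 at 0.5 h (SD, n = 2), with arrays that did not overlap, while their later means were close, at 2.14 and 2.10 at 3 h and 1.73 and 1.77 at 6 h. Target RNA of one gene can bind the other's probe, so each gene's own share in the ratios of such a pair cannot be told apart.

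In 5 further cases the gene with the similar probe was not in the group. DEHA2B15268g matched DEHA2D12034g at 58 bases, and DEHA2D12034g was raised less, with means of 0.37, 1.60 and 0.97. DEHA2D12694g matched DEHA2F02574g at 50 bases, and DEHA2F02574g had means of 0.40, −0.11 and 0.26, so that 2 genes with similar probes read differently on the same arrays. DEHA2E03652g had means of 0.96, 1.47 and 1.63, and DEHA2E07920g, whose probes match at 48 bases, had 0.41, 0.27 and 0.76. Like DEHA2D12034g and DEHA2E07920g, the partners in the remaining cases were above 0 at each time mean. DEHA2A10516g had means of 1.12, 1.49 and 1.79, and DEHA2D12716g, matching at 53 bases, had 1.31, 0.86 and 0.68. DEHA2D12716g thus passed every mean threshold but was not above 0 on every array. DEHA2F22748g had 0.62, 1.11 and 1.35, and DEHA2D14256g, matching at 54 bases, had 0.39, 0.76 and 0.86.

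The annotated genes of the group are short. Their median length in RefSeq ASM644v2 was 690.5 bases, with quartiles of 504 and 903 (n = 118), against 1176 bases over all 5348 array genes with a locus name. The comparison sets did not share this: the median was 1203 bases in the genes past the 3 h and 6 h thresholds alone, and 1237.5 in the genes that passed the same thresholds below 0 at all 3 times, of which 50 of 55 have a length. Of genes under 500 bases 3.91% belonged to the group, of those from 500 to 999 bases 4.80%, of those from 1000 to 1999 bases 0.826%, and of longer ones 0.296%. Restricted to genes with both probes well above background in all 12 channel values, these shares were 11.8, 9.06, 1.62 and 0.337%, and the median length was 717.5 bases in the group against 1320 in all such genes. Gene length took no part in the choice, and no test was made of this difference. Genes chosen on replicate 1 alone had a median of 786 bases, and 14.3% were under 500 bases. On replicate 2 alone these were 632 bases and 32.6%, where 13.9% of all genes were under 500 bases. The share under 500 bases thus depended on the replicate, while the median was below that of all genes in both.

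**Figure D4:**
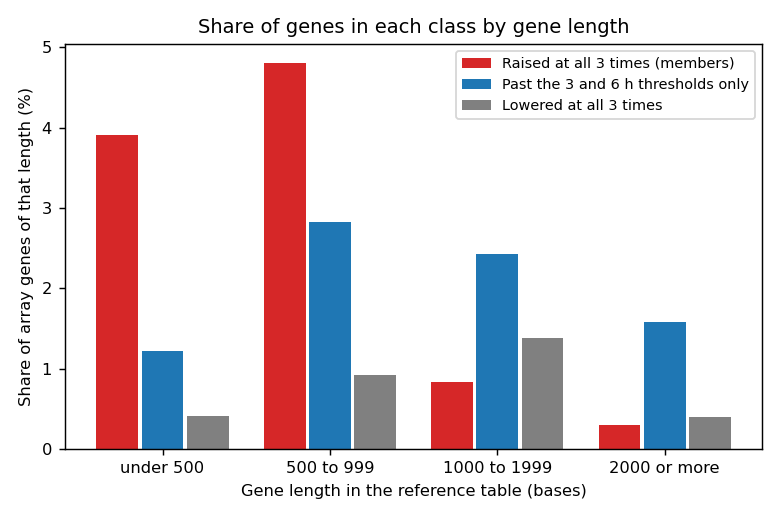
Share (%) of the array genes in each length class (bases, RefSeq ASM644v2) that belong to the group of 121 genes, to the genes past the 3 h and 6 h thresholds only, and to the genes lowered at all 3 times; bars start at 0. The share in the group of 121 is 3.91 and 4.80% in the classes under 1000 bases and 0.826 and 0.296% in the longer ones, while the genes past the late thresholds only have 1.21, 2.82, 2.43 and 1.58% and the lowered genes 0.405, 0.918, 1.38 and 0.395%.

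Many of these short genes have a length that is not a multiple of 3. The annotated length spans the gene from its start to its end, and it was a multiple of 3 for nearly all genes, as a coding sequence without an intron or a gap must be. It was not for 35 of the 118 raised genes (29.7%), against 253 of 5348 array genes (4.73%). The share was 8.47% in the genes past the late thresholds alone and 2.00% in the lowered ones. Read the other way, 35 of the 253 genes of such a length (13.8%) belonged to the group, against 83 of 5095 genes whose length is a multiple of 3 (1.63%). The table gives no exons, so an intron cannot be told apart from any other interruption in the gene.

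The same comparison was made within length classes. Among genes from 500 to 999 bases, 28 of 68 raised genes (41.2%) had a length that is not a multiple of 3, against 103 of 1416 array genes (7.27%). From 1000 to 1999 bases it was 5 of 18 (27.8%) against 85 of 2179 (3.90%), while under 500 bases it was 2 of 29 (6.90%) against 34 of 741 (4.59%). With both probes well above background throughout, it was 31 of 98 raised genes (31.6%) against 136 of 2516 (5.41%). None of these shares was tested. Genes chosen on replicate 1 alone had a share of 31.2% and those chosen on replicate 2 alone 24.6%. The choice from the scanner software's processed signals, which took in 312 genes, had 13.4%.

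The 35 genes of such a length also had somewhat higher median ratios within the group. Their medians were 0.86, 1.71 and 1.95 at 0.5, 3 and 6 h, against 0.79, 1.46 and 1.75 in the 83 others, and their ranges overlapped almost wholly. A rise at each step was seen in 26 of the 35 and in 46 of the 83. These ratios were used to choose the genes, and the order of 3 and 6 h depended on the replicate and the normalization. Neither difference was tested, so nothing is read from them. The 35 genes include DEHA2E14498g, DEHA2G13508g, DEHA2E22946g, DEHA2F12826g, DEHA2B15268g and DEHA2C04884g, and DEHA2B04928g, DEHA2C07920g, DEHA2G07392g and DEHA2E03652g among the genes with similar probes. The 253 genes as a whole stood near 0, with medians of 0.06, 0.08 and 0.09 at 0.5, 3 and 6 h.

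Some of the raised genes are neighbours in the genome. Of the 118 annotated genes, 20 (16.9%) had another as the next gene on the chromosome, where 197 of 5230 other array genes (3.77%) and 4.24% of the genes past the late thresholds alone were next to a raised gene. None of the 50 annotated lowered genes was. The 20 genes formed 9 runs, 7 of 2 genes and 2 of 3 genes. No test was made of this difference, and whether neighbours share a promoter or overlap was not examined. When the choice was repeated under other normalizations, probe rules or on 1 replicate, the share was 13.0 to 17.2% of the genes chosen, against 2.43 to 8.80% of the other genes. The contrast was smallest with processed signals, at 17.2 against 8.80%.

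The longer runs were DEHA2D08514g, DEHA2D08536g and DEHA2D08558g on chromosome D and DEHA2G15422g, DEHA2G15444g and DEHA2G15466g on chromosome G. In the chromosome D run the 6 h means were 1.73 ± 0.94, 1.91 ± 0.31 and 2.15 ± 0.30 (SD, n = 2), and in the chromosome G run 1.74 ± 0.33, 1.46 ± 0.13 and 1.61 ± 0.08. Members of a run did not always have like ratios. DEHA2E14498g averaged 2.43 at 3 h and its neighbour DEHA2E14520g 0.88, whereas DEHA2F16544g and its neighbour DEHA2F16566g both averaged 2.18 to 2.19. The other runs joined DEHA2B04906g to DEHA2B04928g, DEHA2E22946g to DEHA2E22968g, DEHA2F08228g to DEHA2F08250g, DEHA2F22726g to DEHA2F22748g, and DEHA2G13486g to DEHA2G13508g. Over whole chromosomes the share of raised genes ran from 1.65% of the array genes on chromosome A to 2.53% on chromosome G, with 2.21% over all.

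**Figure D5:**
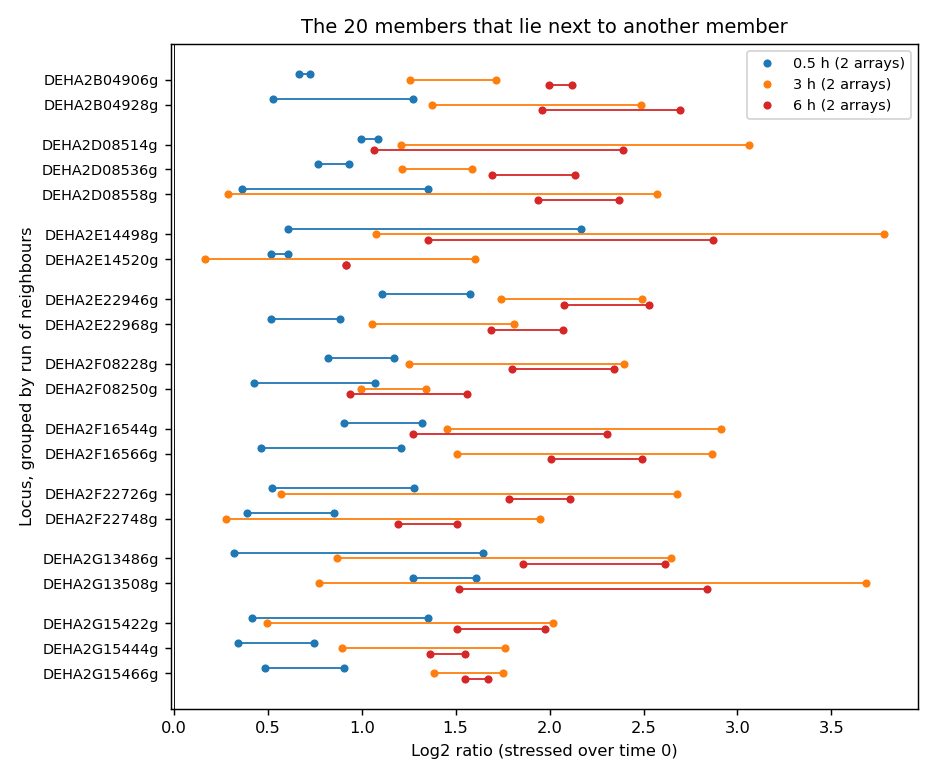
Log2 ratio of stressed over time-0 cells for the 20 raised genes (rows, grouped in 9 runs of adjacent genes) on both arrays of each time, joined by a line and coloured by time. All points are above 0, and partners such as DEHA2E14498g and DEHA2E14520g differ in height while others such as DEHA2F16544g and DEHA2F16566g are close at 3 h.

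The edge of the group is gradual. Just inside the 0.5 h threshold were DEHA2F20900g at 0.50 and DEHA2C15884g at 0.51, and just outside it DEHA2E14036g at 0.49 and DEHA2A05742g at 0.49. DEHA2A03498g, at 0.48 at 0.5 h, was outside in spite of means of 2.54 at 3 h and 1.74 at 6 h. At 3 h, DEHA2G18766g was just inside at 0.61 and DEHA2E04532g just outside at 0.57. A further 8 genes passed all 3 mean thresholds but were not above 0 on every array, and in all 8 the 3 h array of replicate 1 was below 0. One of them, DEHA2G06182g, named after its values were seen, was at −0.20 and 1.86 at 0.5 h, −0.26 and 4.32 at 3 h, and 0.46 and 3.05 at 6 h, with its replicates far apart.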

How the data were processed

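The 6 arrays of Debaryomyces hansenii carried stressed RNA against time-0 RNA, 2 at each of 3 times. The deposited scanner files hold spot intensity values, made per the file headers with Feature Extraction 9.1.3.1. The authors' deposited table holds log2 ratios, made with limma per the submitters' processing notes. It followed uncorrected loess values of the same arrays (r of 0.992 to 0.996, slope of 1.01 to 1.02), so its scale is log2, stressed over control, and its column medians were −0.00121, 0.00381 and 0.0106 at 0.5, 3 and 6 h in replicate 1 and 0.00289, −0.0109 and 0.00272 in replicate 2.

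From the median intensities, limma 3.58.1 in R 4.3.3 corrected background (normexp, offset 50) and normalized within arrays (loess, control spots at weight 0). Ratios were turned to stressed over control, averaged over the 2 probes of a gene and fitted with 1 coefficient per time over 6 arrays, with Benjamini-Hochberg adjustment at 0.05. The fit was tested on simulated data. The number of arrays limits the precision. Whether same-numbered arrays of different times share a culture is not stated, so p-values measure only the spread between these samples. Loess sets the middle of each array to 0, and a change shared by most genes is not seen.

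The genes and lists were chosen with earlier results of these data known. Genes were named by a rule: the 10 highest means, the highest 0.5 h ratios, the extremes of change with time and of replicate spread, and the widest probe gaps. Alternatives were no background correction, processed signals, median centring, the deposited values, the brighter probe, filters on dim and outlier spots, another moderation, a replicate block and leaving out each array. Planned lists by gene function and promoter motifs were not run, since the tables used here carry no gene functions or promoter sequences. Probes were compared by their matching bases, without gaps, and no sequence is printed. RefSeq ASM644v2 supplied only gene names, order and lengths, and no coordinates are given because the array files name no assembly.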

Additional observations from a re-analysis of the deposited data

How the results depend on the processing

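The 121 genes kept ratios above 0 at each time mean in every setting. Of 1053 values of the 27 named genes under alternatives, 982 moved by less than the replicate SD, 71 moved by more and 0 changed sign. Leaving out 1 of the 2 arrays of a time cannot move its mean by more than that SD. It also cannot change the sign, since each of the 121 genes was above 0 on all 6 arrays. The filter on dim probes kept both probes of all 121 genes. The counts of 982 and 0 were therefore partly fixed in advance. The thresholds were met by 102 genes without background correction, all of them in the group, by 312 with processed signals, 120 of them in the group, by 162 with median centring and by 105 with the deposited values. With 1 array left out they were met by 90 to 137 genes.

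Counts of genes called over the whole array depended on the processing, and the cause was not tested. At 0.5 h the count was 6; it was 0 without background correction, 3 with processed signals, 0 with the deposited values and 0 to 4 with 1 array left out. At 3 h it was 345; it was 42 without background correction, 224 with processed signals, 117 with median centring, 31 with the deposited values, 518 with trended and robust moderation, and 23 to 1013 with 1 array left out. At 6 h it was 432; it was 227 without background correction, 221 with the deposited values, and 0 to 750 with 1 array left out. Median centring split the calls 4 higher and 1 lower at 0.5 h, 67 and 50 at 3 h, and 322 and 28 at 6 h, where loess gave 2 and 4, 217 and 128, and 274 and 158.

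For 3 h minus 0.5 h the count of 0 became 1 with the brighter probe and 1 with dim probes removed. For 6 h minus 0.5 h it became 2 with processed signals, 3 with median centring, 2 with the brighter probe, 1 with dim probes removed, 1 with trended moderation and 0 to 1 with 1 array left out. Replicate numbers correlated in their deviations by 0.21, 0.35 and 0.31, but with only 2 numbers they are not taken as pairs. With a replicate block the counts were 6 at 0.5 h, 854 at 3 h and 739 at 6 h, with 1 for 3 h minus 0.5 h, 0 for 6 h minus 3 h and 3 for 6 h minus 0.5 h. Of the 121 genes, 114 were then called higher at 3 h, 113 at 6 h and 1 for 6 h minus 0.5 h. Over all genes 497, 444 and 3 were called higher.

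The number of arrays and the signal over background limit small ratios, most at 0.5 h. The share of genes of a length that is not a multiple of 3 was examined after its value was seen.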
